A study of Drosophila melanogaster with 18 samples.

Results

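The comparison described here sets day 2 flies fed CHX (cycloheximide) against day 2 flies fed vehicle. Its members are the 12 libraries that the labels assign to these groups, 6 with CHX and 6 with vehicle, out of 18 libraries in the series. All 12 came from w1118, a white-eyed laboratory strain with no transgene, are labeled whole fly, and were made from total RNA of flies kept at day 2 of adulthood on sugar and yeast food, into which CHX had been mixed at 1 µM for the treated group. The labels give neither the sex of the flies, nor how long CHX was fed, nor whether the 6 libraries of a condition had separate cultures as their source, so that p-values measure only the spread between these libraries, which may be technical. The name of 3 libraries in each group has a hyphen, that of the other 3 has none. What these 2 name series mark is not stated, and the series was kept as a term in the main tests, those with edgeR.

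CHX binds the large subunit of the cytosolic ribosome and blocks translocation, the step in which the ribosome moves on by a codon after each peptide bond. Ribosomes therefore stay on the mRNA and elongation slows. The ribosome of mitochondria is not a target of CHX. Elongation needs eEF1, which delivers charged tRNA, and eEF2, which drives translocation. Stalled ribosomes are split by pelo with HBS1, while eRF1 and eRF3 release the chain at a stop codon. An mRNA level does not report the rate at which that mRNA is translated, and all values below are mRNA levels. The comparison asks which transcripts differ when PT is slowed in the first days of adult life, when PT is normally high.

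Library totals ran from 21495631 to 38519240 counts in features. CPM are counts scaled to a common library size by TMM, which sets the bulk of features equal between libraries. The TMM factors were 0.778 to 0.875 with CHX and 1.19 to 1.26 with vehicle, with no overlap. The first principal component of log2 CPM held 88.9% of the variance and ran from -102 to -91.7 in CHX libraries and from 85.3 to 113 in vehicle libraries. The label of whole fly was checked against markers of each cell type. Those of the indirect flight muscle (Act88F, TpnC4 and fln) summed to 16100 to 20020 CPM with CHX but to 18.5 to 30.3 CPM in the vehicle libraries, close to 0 for a tissue that fills the thorax. Other tissues were present in the vehicle libraries, with 1141 to 1931 CPM for 5 photoreceptor markers and 3109 to 8900 CPM for 5 midgut markers. None of the vehicle libraries can be left out on this ground, since all 6 are alike, and a body part missing from these samples cannot be told apart from an effect of CHX. In bulk RNA, fewer cells of a type and less RNA per cell cannot be told apart either. Some genes named below share exon positions with another gene, and their values are uncertain. On the same strand this holds for ATPsynC, Act57B, Ilp8, Myc, Nop60B, Pxn, RpL22, RpL3, Sesn, Surf6, Uhg3, crc, eRF1, fit, ftz-f1, mt:CoIII, raptor, sesB, usp and yl. The sources used here do not say whether counting used strand, so it also holds for genes that overlap one on the opposite strand, namely AGO1, AGO2, Act87E, Ald1, AspRS-m, CysRS-m, Diap1, Gcn2, Gpdh1, Hmgs, Hr38, Hsp27, Hsp83, Ilp8, JhI-21, Ltn1, Myc, Opa1, Orc1, Pdh, Pink1, Pxn, RpL3, Sesn, Shmt, TER94, TyrRS-m, Yp1, btz, cort, eEF5, eIF1A, eIF2Bdelta, eRF3, fit, fln, mAcon1, mEFG1, mRpL28, mRpL42, msl-3, nanos, raptor, ref(2)P, twe and usp. The 5 testis markers summed to at most 1.11 CPM and the 4 accessory gland markers to at most 0.298 CPM in any of the 12 libraries.

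The transcriptome differed widely. Of 10664 features tested with edgeR, 4405 were higher with CHX (41.3%) and 4381 were lower (41.1%) at an adjusted p under 0.05. Since most features passed, the counts below rest mainly on a stricter test against a 2-fold change (glmTreat of edgeR), by which 2650 features were higher (24.8%) and 1898 lower (17.8%). These percentages are the background against which each list is read. Separation of the groups was common too. For 7133 of 10664 features all CHX libraries lay on the same side of all vehicle libraries, 3509 higher and 3624 lower. A lack of overlap given for a gene below is therefore the usual outcome here and does not set that gene apart. Rose and fell below mean higher or lower with CHX than with vehicle past the first test. Where no member of a list rose, or none fell, the count was also 0 at an unadjusted p under 0.05 and by DESeq2 and limma-voom. A fold change of 64 or more was reached by 157 features that were higher and 53 that were lower among those that passed. Features nearly absent from 1 group passed the filter on low counts only through the other group. Their direction was fixed by that filter. Over all features tested the median change was 0.0064 on the log2 scale. It depended on the scaling, with 0.21 under upper quartile factors and -0.57 with library sizes only, where 3151 features were higher and 5860 lower at an adjusted p under 0.05. For initiation factors, ribosomal proteins of both kinds and proteasome subunits, the list median is therefore also given relative to that of all features. Other small changes are given under TMM, and their zero point moves with the scaling.

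**Figure D1:**
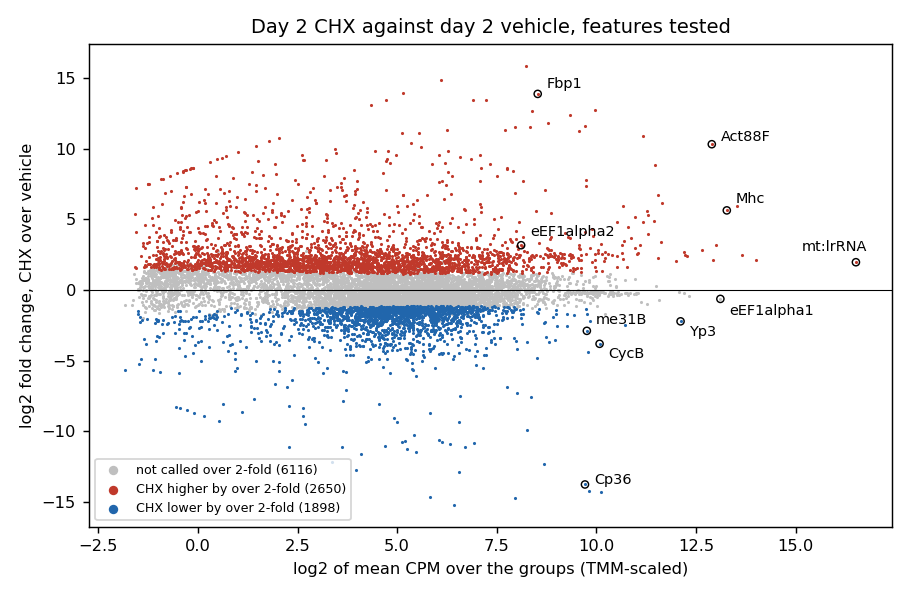
Log2 fold change of CHX over vehicle (vertical axis) against the log2 of the mean CPM of both groups (horizontal axis), 1 point per feature tested. Of 10664 features, 2650 are red (higher with CHX by over 2-fold) and 1898 blue (lower by over 2-fold), with Fbp1 and Act88F among the highest and Cp36 among the lowest of the circled genes.

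The make-up of the RNA shifted as a whole. Of the raw counts in features, a median of 12.4% came from the 2 mitochondrial rRNA genes with CHX and 4.65% with vehicle. The other features of the mitochondrial genome held 6.71% and 2.04%, and 27 muscle genes 9.60% and 0.578%. In the other direction, cytosolic ribosomal protein genes held 5.27 to 7.57% of raw counts with CHX and 10.1 to 11.6% with vehicle. Genes of eggshell and yolk held 0.646 to 1.06% and 2.29 to 6.03%. Each of these shares was apart in the 6 CHX and the 6 vehicle libraries. Because the shares add up to the whole library, a lower share can come with an unchanged number of molecules, and TMM scaling addresses this for the bulk of genes only.

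**Figure D2:**
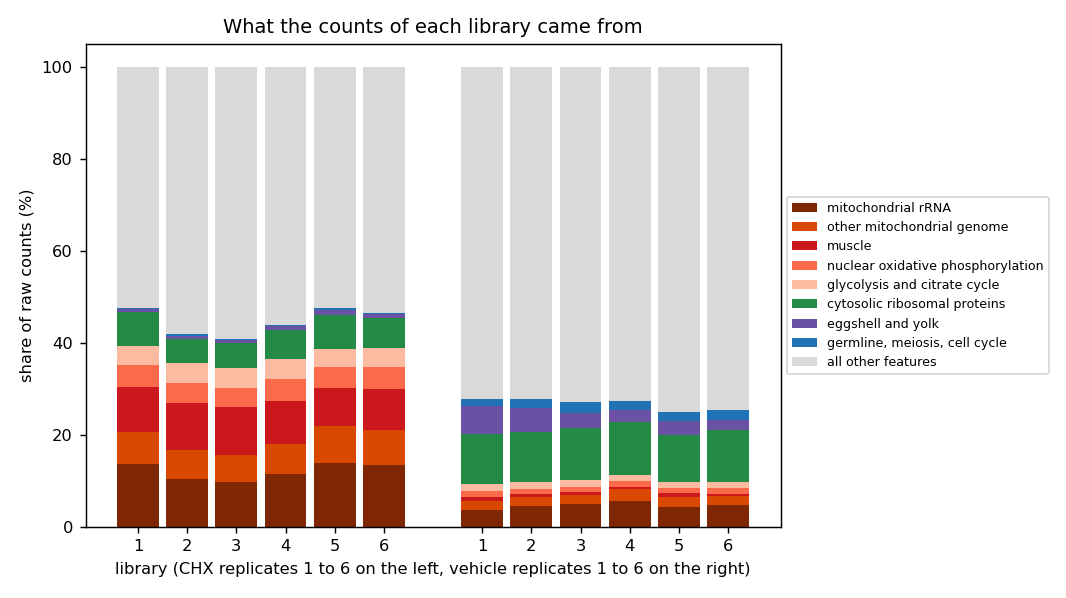
Share of raw counts (vertical axis, in percent) by group of features in each of the 12 libraries (horizontal axis), stacked to 100%. Mitochondrial and muscle segments are tall in all 6 CHX libraries, and ribosomal protein and eggshell segments in all 6 vehicle libraries.

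Among the elongation factors, the ubiquitous and the muscle and neuron forms of eEF1alpha moved in opposite directions. In this paragraph and those that follow, CPM of a gene are given as the lowest, the median and the highest of 6 libraries, and a value without a unit, often in parentheses, is a log2 fold change of CHX over vehicle. eEF1alpha1, the main carrier of charged tRNA, had 6246, 6853 and 8127 CPM with CHX and 10348, 10760 and 10989.5 CPM with vehicle. The groups did not overlap, and the difference was -0.63 on the log2 scale (standard error 0.08, adjusted p = 4.05e-06 from edgeR). eEF1alpha2 had 454, 499 and 526 CPM with CHX and 39.5, 52.3 and 73.0 CPM with vehicle. All CHX libraries were at least 6-fold above every vehicle library, at 3.18 on the log2 scale (standard error 0.14, adjusted p = 1.15e-10 from edgeR). Per kilobase of exon, eEF1alpha2 made up 5.36 to 7.25% of both forms with CHX and 0.333 to 0.632% with vehicle, so eEF1alpha1 remained the main form in all 12 libraries. This share differed between the groups (exact permutation test, two-sided, p = 0.00217, the smallest that 6 against 6 libraries allow, adjusted p = 0.00289 over 8 pairs of paralogs). That test held no term for the name series. In the same libraries 6 muscle markers summed to 48150 to 59650 CPM with CHX and 1461 to 2220 CPM with vehicle. For 5 neuron markers the sums were 410 to 595 CPM and 92.7 to 186 CPM. The part of these tissues in the rise of eEF1alpha2 and in its share was not tested. eEF2, the translocase whose step CHX blocks, had 3747, 4003 and 4318 CPM with CHX and 4175, 4337 and 5079.9 CPM with vehicle. Its groups overlapped and it did not pass the test (-0.17, adjusted p = 0.0646 from edgeR). eEF5, which helps ribosomes over stretches of proline and is modified with hypusine, also missed the threshold (-0.25, adjusted p = 0.0504 from edgeR). Of 12 elongation factors tested 2 rose and 4 fell. The fallers besides eEF1alpha1 were eEF1beta (-0.44) and eEF1gamma (-0.39), which serve its nucleotide exchange, and the mitochondrial mEFG1 (-0.39). The other riser was mEFTu1 (0.95), the mitochondrial carrier of charged tRNA.

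Initiation factors were mostly lower by a small amount. Of 35 tested, 25 fell and 1 rose, and none passed the 2-fold test, with a median log2 fold change of -0.45. Summed over the list, the level was 6655 to 7379 CPM with CHX and 8412 to 9204 CPM with vehicle. eIF4A, the helicase that unwinds the mRNA leader, was the most abundant and had 1219.8, 1262 and 1390.3 CPM against 1425, 1459 and 1529 CPM (-0.19). With upper quartile factors it had 0.02 and did not fall. eIF3b, a scaffold subunit of eIF3, had 330, 349.7 and 369 CPM against 585, 614 and 631 CPM, a log2 fold change of -0.81. The riser was eIF1A (0.67), which acts in scanning, and the lowest value was that of eIF2Bdelta (-1.14), a subunit of the exchange factor of eIF2. Relative to the median of all features the list lay at -0.46 with TMM, at -0.46 with library sizes only and at -0.45 with upper quartile factors.

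Aminoacyl-tRNA synthetases, which charge tRNA with amino acids, were lower by more. Of 33 tested, 27 fell and 3 rose, with a median of -0.72, and by over 2-fold 3 were lower and 1 higher. MetRS, which charges methionine tRNA in the cytosol, had 35.7, 36.9 and 40.5 CPM with CHX and 89.2, 98.4 and 105 CPM with vehicle. Its groups were far apart for their spread, at -1.37 (standard error 0.07, adjusted p = 3.46e-10 from edgeR). The most abundant members, AlaRS (-0.76) and IleRS (-0.97), fell too, and so did AspRS-m (-1.26) and ValRS-m (-1.35) of mitochondria. PheRS-m, the mitochondrial phenylalanine enzyme, went the other way. It had 74.9, 81.0 and 88.1 CPM with CHX and 29.8, 31.3 and 33.6 CPM with vehicle, or 1.38 on the log2 scale (standard error 0.08, adjusted p = 7.81e-10 from edgeR). The other risers, both also of mitochondria, were CysRS-m (0.25, and -0.32 with library sizes only) and TyrRS-m (0.37, and -0.20 with library sizes only).

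Factors that end translation or free stalled ribosomes did not rise. Of 8 tested, 5 fell and none rose at an adjusted p under 0.05 by edgeR, with a median of -0.48. pelo, the sensor of ribosomes with an empty site, had 38.2, 41.8 and 43.2 CPM with CHX and 69.7, 77.2 and 87.5 CPM with vehicle. It was lower in every CHX library than in any vehicle library (-0.90, standard error 0.08, adjusted p = 9.31e-08 from edgeR). Its partner HBS1 had -0.34, eRF3 -0.64, and Ltn1 and Clbn, which tag and extend chains stuck on the large subunit, -0.61 and -0.62. eRF1 did not pass (-0.16), and neither did TER94 (0.03), the segregase that pulls stuck chains out. With upper quartile factors 4 fell and 1 rose, and with library sizes only all 8 fell. Germline and follicle markers, given with ribosome biogenesis below, were lower with CHX in the same libraries. Their part in the falls of initiation factors, of synthetases and of these factors was not tested.

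Cytosolic ribosomal proteins had few members called with TMM. Of 84 tested, 14 fell and 3 rose, and by over 2-fold 1 was lower and 1 higher. With library sizes only 81 fell and 1 rose, and with upper quartile factors 1 fell and 3 rose. The median was -0.19 with TMM, 0.02 with upper quartile factors and -0.77 with library sizes only, and between -0.20 and -0.18 relative to all features under these scalings. Summed CPM of the list ran from 61600 to 97320 with CHX and from 80290 to 95710 with vehicle, so the groups overlapped. RpL3 (-0.24) and RpL5 (-0.30), its most abundant members, fell slightly, with overlapping libraries. RpS19b rose (1.99), from a mean of 0.328 to 1.32 CPM, a level near the floor of detection beside its abundant partner. RpL22 had -0.32.

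Genes of ribosome biogenesis were lower. Of 29 tested 28 fell and none rose, 8 of them by over 2-fold, with a median of -1.06. Rrp1 had 13.9, 15.5 and 16.1 CPM with CHX and 73.4, 82.3 and 96.8 CPM with vehicle (-2.44, standard error 0.10). In flies this symbol belongs to a DNA repair endonuclease rather than to an rRNA processing factor, so this member does not do what the list's name says. Nop60B, which converts uridine to pseudouridine in rRNA, had 107, 132 and 158 CPM with CHX and 357, 426 and 549 CPM with vehicle (-1.72, standard error 0.12). The nucleolar proteins Surf6 (-1.73), Non1 (-1.09) and mod (-1.04) fell as well. Myc, which drives ribosome production, had 33.9, 49.8 and 56.4 CPM against 122, 162 and 169 CPM, or -1.69 on the log2 scale (standard error 0.13, adjusted p = 1.51e-08 from edgeR), with no overlap. Of 6 host genes of snoRNAs 4 fell, Uhg3 by over 2-fold (-1.44). In the same libraries the 4 germline markers summed to 69.0 to 109 CPM with CHX and 389 to 503 CPM with vehicle, and the 4 follicle markers to 1.16 to 19.0 CPM and 936 to 4522 CPM. Their part in the falls of this list and of Myc was not tested.

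Mitochondrial ribosomal proteins rose more often than they fell with TMM. Of 72 mitochondrial ribosomal proteins 33 rose and 8 fell, 3 of them rising by over 2-fold, with a median of 0.25, and with library sizes only the balance turned to 6 that rose and 38 that fell (median -0.33). Relative to all features the list lay between 0.24 and 0.25 under the 4 scalings. mRpL28 had 127, 151 and 176 CPM with CHX and 53.8, 62.1 and 64.2 CPM with vehicle (1.29, standard error 0.09), mRpL42 had 1.33 and mRpL27 1.25. mRpS30, the most abundant member with vehicle, did not pass (0.13). Nuclear genes of oxidative phosphorylation (median 2.29) and protein-coding genes of the mitochondrial genome (median 2.38) rose in the same libraries. Whether a higher content of mitochondria or of muscle has a part in the values of this list was not tested.

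**Figure D3:**
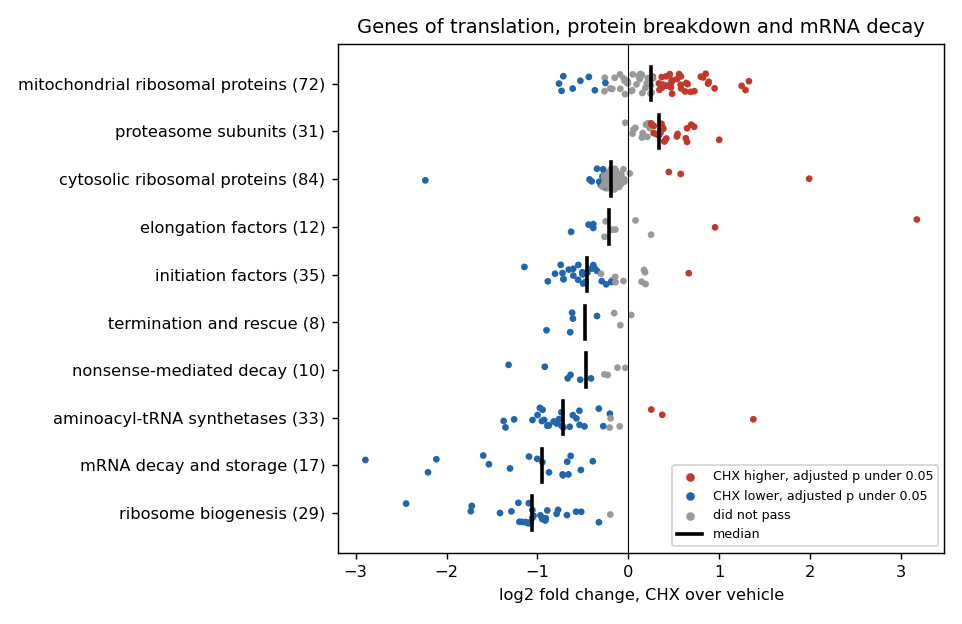
Log2 fold change of CHX over vehicle (horizontal axis) for each tested member of 10 gene lists (rows, with the number tested), with the list's median as a black bar. Medians run from -1.06 for ribosome biogenesis to 0.34 for proteasome subunits, and eEF1alpha2 lies apart from the other elongation factors.

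Every tested factor of mRNA decay and storage was lower. All 17 fell, 6 of them by over 2-fold, with a median of -0.94, and the summed level was 1134 to 1563 CPM with CHX and 4154 to 5323 CPM with vehicle. The most abundant ones that fell by over 2-fold are known for holding maternal mRNA silent in the egg. me31B, a helicase of such granules, had 169, 194 and 278 CPM with CHX and 1228, 1498 and 1914 CPM with vehicle (-2.89, standard error 0.15, adjusted p = 5.61e-10 from edgeR). Its partner tral had 252, 324 and 397 CPM against 1323, 1470 and 1687 CPM (-2.20), and Edc3, an enhancer of decapping, 22.3, 29.7 and 31.1 CPM against 95.3, 125 and 144 CPM (-2.11). Of 10 factors of nonsense-mediated decay, which removes mRNAs with early stop codons, 6 fell and none rose by edgeR, with a median of -0.47. Upf1, its central helicase, had 42.8, 52.7 and 63.2 CPM with CHX and 74.9, 81.0 and 98.9 CPM with vehicle (-0.64), and btz of the exon junction complex -1.32, while Smg5, an adaptor, did not pass (-0.03). The germline and follicle markers fell in the same libraries, as given above, and their part in these falls was not tested.

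Genes linked to the integrated stress response, in which a kinase phosphorylates eIF2alpha and ATF4 is translated, moved in both directions. Of 10 genes 3 rose and 2 fell, beside 41.3% and 41.1% of all features. crc, the fly ATF4, had 100.3, 149 and 189 CPM with CHX and 99.4, 111 and 150.4 CPM with vehicle, with overlapping groups (0.38, adjusted p = 0.0362 from edgeR), and took the opposite sign with library sizes only (-0.18). PEK, the kinase of the endoplasmic reticulum that starts this response, had 36.3, 44.4 and 50.8 CPM against 105, 124 and 146 CPM and fell (-1.53, standard error 0.11). Gcn2, the kinase that senses uncharged tRNA, fell too (-1.26). The germline and follicle markers fell in the same libraries, and their part in the falls of PEK and Gcn2 was not tested. Sesn, a stress protein that restrains TOR, rose (2.25). Thor, the inhibitor of cap-dependent initiation and a target of ATF4 and foxo, had 119, 179 and 269 CPM with CHX and 101, 228 and 324 CPM with vehicle and did not pass (-0.16, adjusted p = 0.390 from edgeR). Of the serine and folate genes, Shmt had 0.52 (-0.06 with library sizes only), and aay did not pass (-0.10) with 0.76 among hyphenated and -0.95 among unhyphenated libraries.

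The insulin and TOR pathway was lower at several steps and not at S6k. Of 25 genes 13 fell and 6 rose, by over 2-fold 6 and 2. raptor, a subunit of TOR complex 1, had 7.49, 16.3 and 36.6 CPM with CHX and 41.3, 58.6 and 69.8 CPM with vehicle (-1.58), with no overlap of the groups. Pdk1, a kinase that activates Akt and S6k, had -1.08. S6k, the kinase of ribosomal protein S6, had 188, 207 and 235 CPM with CHX and 153, 159 and 174 CPM with vehicle. It was higher in every CHX library than in any vehicle library (0.36, standard error 0.07, adjusted p = 2.97e-04 from edgeR), and lower with library sizes only (-0.22). Ilp8, a relaxin-like hormone known from damaged larval discs and from the ovary, had 0.638, 0.985 and 1.16 CPM with CHX and 31.8, 53.3 and 88.1 CPM with vehicle (-5.86). Of the insulin-like peptides of the brain, Ilp3 (3.96) and Ilp5 (2.43) rose, at means of 4.04 and 2.55 CPM with CHX.

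**Figure D4:**
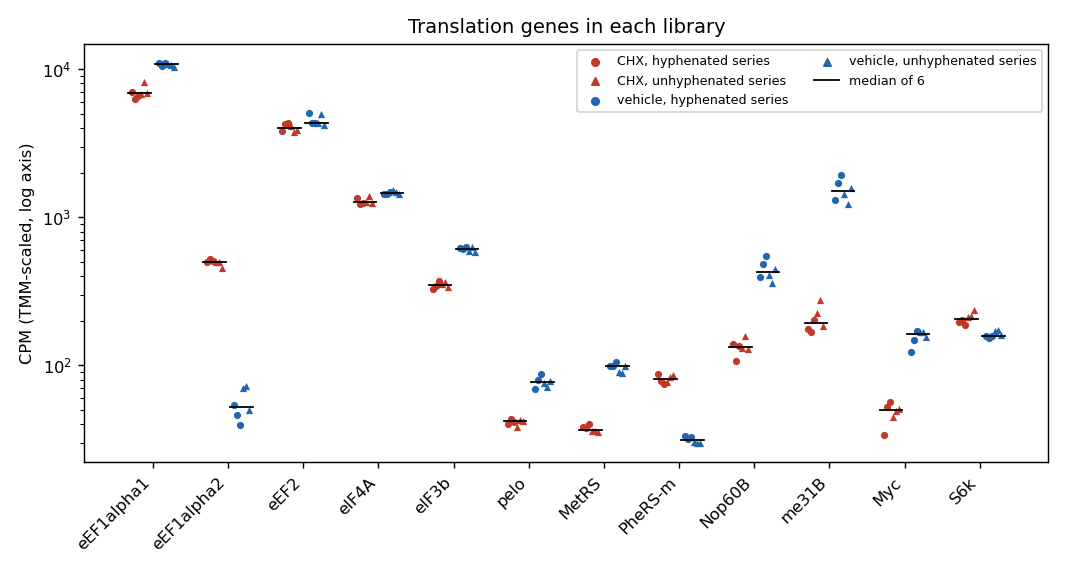
CPM on a log axis (vertical) of 12 translation genes (horizontal) in each library, with circles for the hyphenated and triangles for the unhyphenated series and a bar at the median of 6. CHX libraries (red) lie below vehicle libraries (blue) for eEF1alpha1, eIF4A, eIF3b, pelo, MetRS, Nop60B, me31B and Myc, above them for eEF1alpha2, PheRS-m and S6k, and overlap them for eEF2.

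In cultured cells a translation block is known to stabilize mRNAs of immediate early genes. Of 11 such genes in these flies 5 rose and 4 fell, with a median of -0.13. Both counts lay near the shares over all features, of which 41.3% rose and 41.1% fell. sr, a zinc finger factor of the Egr family, had 16.1, 18.2 and 27.0 CPM with CHX and 1.79, 3.17 and 5.59 CPM with vehicle (2.57). Hr38, an orphan nuclear receptor, had 2.47, kay, the fly Fos, 1.18, and Atf3 0.76. The muscle and neuron markers given with eEF1alpha2 were higher in the same libraries, and their part in these rises was not tested. Of the 4 genes that fell only Gadd45 is given here. Gadd45 had 11.7, 15.9 and 20.2 CPM with CHX and 11.9, 39.4 and 62.8 CPM with vehicle (-1.07), with -0.11 among hyphenated and -2.02 among unhyphenated libraries. This difference between series passed its test (adjusted p = 0.00742 from edgeR), so the fall rests on the unhyphenated libraries.

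Proteasome subunits moved little, while genes of the unfolded protein response and of autophagy moved in both directions. Of 31 proteasome subunits 21 rose and none fell by edgeR, with a median of 0.34 and none past 2-fold, and with library sizes only 1 rose and 17 fell (median -0.24). Relative to all features the list lay between 0.33 and 0.34 under the 4 scalings. Rpn6, a scaffold of the regulatory particle, had 344, 389.5 and 411 CPM with CHX and 222, 243 and 282 CPM with vehicle (0.65). Of 18 genes of the unfolded protein response 6 rose and 7 fell. Hsc70-3, the chaperone BiP, did not pass (-0.11), prtp, a protein disulfide isomerase, rose (1.30), and wfs1 of the endoplasmic reticulum fell (-1.19). Of 22 autophagy genes 6 rose and 9 fell. Rises beside falls, as in these 2 lists, are the usual outcome here, since 41.3% of all features rose and 41.1% fell. Atg8a, the protein that coats autophagosomes, had 508, 638 and 756 CPM against 244, 326 and 449 CPM (0.94). ref(2)P, a receptor for cargo, had -0.67 with overlapping libraries, and Atg16 -1.20.

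Ranked by CPM rather than by fold, the RNA that CHX libraries held in excess came from mitochondria and muscle. The 10 largest rises in mean CPM were those of mt:lrRNA, Mlc2, mt:CoI, Mhc, mt:CoIII, Act88F, sesB, ATPsynC, mt:Cyt-b and blw. mt:lrRNA, the large rRNA of mitochondria, had 111972, 153600 and 178056 CPM with CHX and 30932, 38060 and 44900.5 CPM with vehicle (1.97, standard error 0.13). Such a level also depends on how rRNA was removed from each library, which the sources used here do not give. Mhc, the myosin heavy chain of all muscles, had 14790.4, 18090 and 24360.5 CPM with CHX and 278, 339 and 568 CPM with vehicle (5.64, standard error 0.22). sesB, which exchanges ATP for ADP across the inner membrane, had 13036, 14720 and 16269 CPM against 1497, 1647 and 1769.6 CPM (3.17).

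The 10 largest falls were those of Yp3, Cp38, CG12374, CycB, Cp15, Cp36, dhd, me31B, tral and betaTry. They belong to yolk, chorion, oocyte and gut. Yp3, a yolk protein, had 877, 1435 and 3091 CPM with CHX and 4562, 6849 and 11865 CPM with vehicle (-2.22, standard error 0.35). CycB, a mitotic cyclin stored in the egg, had 101, 132 and 227 CPM against 1647, 1988 and 2498 CPM (-3.81), and dhd, a thioredoxin of the oocyte, 45.6, 73.3 and 155 CPM against 1227, 1738 and 2149 CPM (-4.39). The intestinal proteases betaTry (-1.72) and CG12374 (-2.48) differed between the name series, as described below.

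All muscle genes tested were higher with CHX, by very unequal amounts. Each of 23 rose by over 2-fold, with a median of 3.73, where the indirect flight muscle genes lay at 10.33 (Act88F), 8.92 (fln) and 7.39 (TpnC4). Of 6 actins, the flight muscle form Act88F had 14092, 14860 and 17717 CPM with CHX and 7.95, 10.7 and 16.2 CPM with vehicle. Act79B of thorax and leg muscle had 5585, 5754 and 6789 CPM against 47.3, 55.8 and 70.4 CPM (6.71). Act87E (4.36) and Act57B (3.17), actins of the body wall muscle, differed less. The cytoplasmic actins went slightly the other way, Act42A with -0.41 (adjusted p = 0.00196 from edgeR) and Act5C with -0.22, which did not pass (adjusted p = 0.0596 from edgeR). The near absence of flight muscle transcripts in the vehicle libraries bears on each of these values, and its part in them was not tested.

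Genes of energy metabolism were mostly higher. Of 36 nuclear genes of oxidative phosphorylation all rose, 35 by over 2-fold, with a median of 2.29. ATPsynC, the ring subunit of ATP synthase, had 9639, 11790 and 12504 CPM with CHX and 1262, 1595 and 1733 CPM with vehicle (2.87), blw, its alpha subunit, 2.71, and Cyt-c-p, cytochrome c, 3.66. All 13 protein-coding genes of the mitochondrial genome rose, 12 by over 2-fold, with a median of 2.38. mt:CoI had 22818, 26060 and 32679.6 CPM against 5189, 5775 and 7002 CPM (2.15), and mt:ND3 2.69. Of 18 genes of the citrate cycle 16 rose and 1 fell, and kdn, citrate synthase, had 4323, 4793 and 5034 CPM with CHX and 208, 298 and 447 CPM with vehicle. Idh3a had 2.82 and mAcon1, aconitase, 2.53. All 16 glycolysis genes rose, 13 by over 2-fold. Gpo1 (4.10) and Gpdh1 (3.47), the enzymes of the glycerol phosphate shuttle that flight muscle uses, had the largest rises of the list, and Ald1 (2.29) and Gapdh1 (2.66) were its most abundant members with CHX. These genes are strongly used in muscle, and the 6 muscle markers, which summed to 48150 to 59650 CPM with CHX and 1461 to 2220 CPM with vehicle, moved with them. Their part in these rises was not tested.

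Genes of egg production were lower, and eggshell genes were nearly absent with CHX. All 10 chorion genes and all 10 tested genes of the vitelline membrane and its crosslinking fell by over 2-fold. Summed chorion levels were 3.87 to 5.50 CPM with CHX and 5351 to 14440 CPM with vehicle. Cp36 had 0.0944, 0.112 and 0.140 CPM with CHX and 674, 1350 and 2969.7 CPM with vehicle. Eggshell genes this near to 0 with CHX passed the filter on low counts only through the vehicle group. The direction of such members was fixed in advance. Vm26Aa, a vitelline membrane protein, had 0.420, 0.679 and 17.8 CPM with CHX and 26.5, 547 and 1361 CPM with vehicle, where the highest CHX value came from replicate 5 alone. For yolk, Yp1 (-0.96) fell, Yp2 did not pass (-0.43, adjusted p = 0.0971 from edgeR), and yl, the receptor by which the oocyte takes up yolk, had 129.6, 181 and 227 CPM with CHX and 853, 1051 and 1344 CPM with vehicle (-2.56). Of 41 germline and maternal genes 37 fell and 1 rose, 30 falling by over 2-fold, with a median of -2.19. nanos, a translational repressor of the germ plasm, had 3.97, 6.34 and 10.1 CPM against 135, 162 and 209 CPM (-4.67), and smg, which silences nanos mRNA, 57.8, 79.3 and 98.5 CPM against 760.3, 930.3 and 1061 CPM (-3.51). bcd, the anterior determinant, had -4.89.

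Genes of meiosis and the cell cycle were lower too. Of 21 meiosis genes 18 fell and 1 rose, with mtrm (-4.62), twe (-5.04) and cort (-4.49), regulators of the female meiotic divisions, at the far end. All 45 genes of the cell cycle and of DNA replication fell, 43 by over 2-fold, with a median of -2.93. CycA had 48.9, 61.5 and 91.5 CPM with CHX and 702, 824 and 982 CPM with vehicle (-3.68). polo, a mitotic kinase, had -3.85, CycB3 -4.67 and Orc1, a subunit of the origin recognition complex, -4.54. The tubulins moved in both directions, with the maternal alphaTub67C (-3.42) and gammaTub37C (-4.16) lower, betaTub97EF higher (2.46), and the general alphaTub84B at 0.33 (-0.25 with library sizes only). msl-1 (-2.32), msl-3 (-1.63) and mof (-2.16) of the dosage compensation complex fell as well, 3 of 6 genes tested for it, and 1 rose.

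Transcripts of the pharate and newly emerged adult were high with CHX. Of 36 cuticle genes listed, 26 passed the filter on low counts and were tested. Of these 26, 25 rose and none fell, 23 by over 2-fold. Their sum was 6007 to 7760 CPM with CHX and 18.7 to 27.8 CPM with vehicle. Vajk3 and Vajk2 had medians of 1634 and 1463 CPM against 0.550 and 0.593 CPM. Of 14 genes of tanning and pigment 13 rose and 1 fell, with ple, which makes dopa, at 263, 349 and 591 CPM with CHX and 5.83, 9.89 and 14.2 CPM with vehicle (5.16). All 6 genes of larval storage proteins and fat body rose. Lsp1beta had 356, 484 and 601 CPM against 8.11, 23.9 and 68.5 CPM (4.21) and Fbp1, the receptor for storage proteins, 512, 715 and 1109 CPM against 0, 0.0365 and 0.0896 CPM. Storage and cuticle genes as near to 0 with vehicle as Fbp1 passed the filter only through the CHX group. The direction of such members was fixed in advance. Of 16 genes of the extracellular matrix 15 rose and none fell, and Col4a1 and vkg, which form collagen IV, had 2.94 and 2.82. Whether such transcripts persisted or were made anew cannot be told from levels.

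Tissues outside the ovary differed in how far they moved. In the same libraries germline and follicle markers fell and muscle markers rose, as given above. The part of this shift in the values of this paragraph and the next was not tested. Of 17 neuron genes 16 rose by over 2-fold and none fell, with a median of 1.95. Syt1, the calcium sensor of synaptic vesicles, had 135, 154 and 225 CPM with CHX and 23.4, 36.5 and 62.5 CPM with vehicle (2.16), Gad1, which makes GABA, 3.05, and cpx, complexin, 2.36. Of 9 glia genes 8 rose and 1 fell, Gs2, glutamine synthetase, with 2.27 and Eaat1, a glutamate transporter, with 1.80. Of 18 photoreceptor genes 14 rose and none fell, 9 by over 2-fold. ninaE, the main rhodopsin of the eye, had 886, 1034 and 1136 CPM with CHX and 686, 991 and 1164 CPM with vehicle. Its groups overlapped and it did not pass (0.11, adjusted p = 0.397 from edgeR), or had -0.47 with library sizes only, while Arr2, arrestin, rose by 0.76 and Pdh, a retinal enzyme, by 3.61 on the log2 scale.

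Genes of gut, fat body and blood cells moved in both directions, and those of the tubule that passed rose. The shares over all features were 41.3% that rose and 41.1% that fell. Of 25 midgut genes 5 rose and 8 fell. Of 11 tubule genes 9 rose and none fell, and Irk2, a potassium channel, had 95.0, 103 and 113 CPM against 22.1, 28.4 and 35.1 CPM (1.85), whereas Vha55, a subunit of the proton pump, had 0.43 and -0.14 with library sizes only. Of 17 genes of the adult fat body 10 rose and 4 fell. GstS1, a glutathione S-transferase that is also abundant in flight muscle, had 4669.7, 4882 and 5213 CPM with CHX and 105, 118 and 142 CPM with vehicle (5.34), and fit, a satiety signal of the fat body, fell (-4.72). Of 11 hemocyte genes 6 rose and 2 fell, with Pxn, peroxidasin, at 2.21 and NimC1, a phagocytosis receptor, at 1.39. Among 10 oenocyte genes, the desaturase Fad2, which females use for their dienes, had 0.0350, 0.114 and 0.283 CPM with CHX and 175, 261 and 289 CPM with vehicle (-10.82). Cyp4g1, which makes hydrocarbons in the same cells, did not pass (-0.19). Of 30 odorant-binding proteins 26 rose and 1 fell, Obp99b with 269, 479 and 683 CPM against 0.264, 0.920 and 3.77 CPM (8.45), and the one that fell, Obp19c, with -5.62.

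Hormone genes moved in both directions, as did all features, of which 41.3% rose and 41.1% fell. Of 19 ecdysone genes 10 rose and 4 fell. Eip78C (3.30) and Eip74EF (2.67), early response genes, rose by over 2-fold, while usp, a subunit of the ecdysone receptor, had 45.8, 48.1 and 50.3 CPM with CHX and 99.7, 108 and 127 CPM with vehicle and fell (-1.21). E23, an exporter that dampens the response, fell (-2.13), and ftz-f1 had -0.95. Of 15 genes of JH (juvenile hormone) synthesis and response 8 rose and 3 fell. Hmgs, an enzyme at the head of JH synthesis, had -0.22 with overlapping libraries, Aldh-III 0.52 (-0.05 with library sizes only), and Jhedup, an esterase related to JH breakdown, 1.80. JhI-21, an amino acid transporter that JH induces in cultured cells, had 19.4, 21.5 and 22.6 CPM with CHX and 52.5, 63.1 and 72.4 CPM with vehicle (-1.58, standard error 0.09), with no overlap.

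Stress and immune genes moved in both directions. Over all features 41.3% rose and 41.1% fell, so rises beside falls do not by themselves set a list apart. Of 11 small and inducible heat shock genes 5 rose and 4 fell. For 4 of these 11 the CHX effect differed between the name series, as described below. Hsp26 had 17.8, 25.1 and 35.1 CPM with CHX and 444, 725 and 906 CPM with vehicle (-4.82), Hsp27 -4.10 and Hsp83, the abundant Hsp90, -0.86. Hsp26, Hsp27 and Hsp83 are also known for constitutive transcripts in the ovary. Hsp23 had 53.6, 80.9 and 96.9 CPM against 8.83, 20.2 and 37.3 CPM and rose (2.02). Of 16 antioxidant genes 6 rose and 8 fell. Sod2, the mitochondrial superoxide dismutase, had 199, 261 and 287 CPM with CHX and 72.9, 90.3 and 104 CPM with vehicle (1.47), and Cat, catalase, 0.51 (-0.07 with library sizes only). Of 4 Turandot peptides 3 rose and 1 fell, TotA with 67.8, 102 and 273 CPM against 9.14, 12.3 and 20.9 CPM (3.22). Of 20 antimicrobial genes 12 rose and 3 fell, 8 rising by over 2-fold. BomS2, a short Bomanin peptide, had 317, 436 and 612 CPM with CHX and 27.6, 43.4 and 189 CPM with vehicle (2.91), and BomS3 had 3.15. Of 15 genes of cell death 5 rose and 4 fell, hid, which removes caspase inhibitors, with 1.50 and Diap1, such an inhibitor, with 0.47 (-0.11 with library sizes only).

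Some abundant genes had nearly equal levels in both groups. The 8 genes of at least 100 CPM with the smallest change were Pink1, TM9SF2, Opa1, KdelR, CG11857, AGO2, csw and AGO1. Pink1, a kinase that guards mitochondrial quality, had 137, 154 and 161 CPM with CHX and 142, 149 and 172 CPM with vehicle. Opa1, which fuses the inner membrane of mitochondria, had 112, 131 and 141 CPM against 122, 129.8 and 133 CPM. AGO1, the Argonaute of microRNAs, had 194, 225 and 245 CPM against 206, 223 and 231 CPM, and AGO2, that of short interfering RNAs, 155, 192 and 239 CPM against 154, 189 and 233 CPM. Groups overlapped for all of them. These genes were chosen for a small value under TMM, and the zero point of the scale moves with the scaling, so that AGO1 had -0.56 with library sizes only.

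Changes were unevenly spread over classes of genes. Among 86 genes of chromosome 4, 1.16% were lower by over 2-fold and 31.4% higher, with a median log2 fold change of 0.64. On the X chromosome, 22.1% of 1720 genes were lower and 20.6% higher, with a median of -0.22. The 4 long autosome arms lay between, with 17.1% to 17.7% lower. By coding length, 10.4% of 2010 protein-coding genes of up to 717 bases were lower against 22.1% of 2007 genes of at least 2535 bases, where 28.5% and 23.4% were higher. Genes of 6 or more exons were higher in 30.9% and lower in 13.5%, and genes of 1 exon higher in 18.5% and lower in 22.9%. Of 33 snoRNAs none was called over 2-fold in either direction. Of 174 transposable elements 23.6% were higher and 4.02% lower. Genes of a class share location, length and tissue use, and the filter on low counts keeps a rare transcript more readily when 1 group is high, so these shares describe the genes tested and carry no test.

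The name series agreed on direction for the large changes and differed for a small set of features. Of 4531 features called over 2-fold with a value in both series, all 4531 had the same sign in both. Each series entered the fit that called them, so this describes the calls and is no independent check. A test of the difference itself called 274 of 10664 features (2.57%), 141 with the same sign in both series and 133 with opposite signs. Without CHX replicate 1, 993 features were called, and without the others between 124 and 353. Of 25 midgut genes 9 were among the 274, all of them serine proteases. Jon99Fi had -6.18 among hyphenated and -2.54 among unhyphenated libraries, and betaTry -2.71 and -0.72. Of 20 antimicrobial genes 5 were among them, and BomS3 had 4.30 and 2.03. So were 4 of 11 small and inducible heat shock genes, 3 of 10 genes linked to the integrated stress response and 3 of 18 of the unfolded protein response. Yp3 had -3.08 and -1.35, and fit -6.77 and -2.79. In the vehicle group CG12374 had 5375 CPM in replicate 1 and at most 2759 CPM in the other 5, and betaTry 2621 and at most 1198 CPM. Since the labels do not say what the series are, a difference of flies and one of library preparation cannot be told apart.

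**Figure D5:**
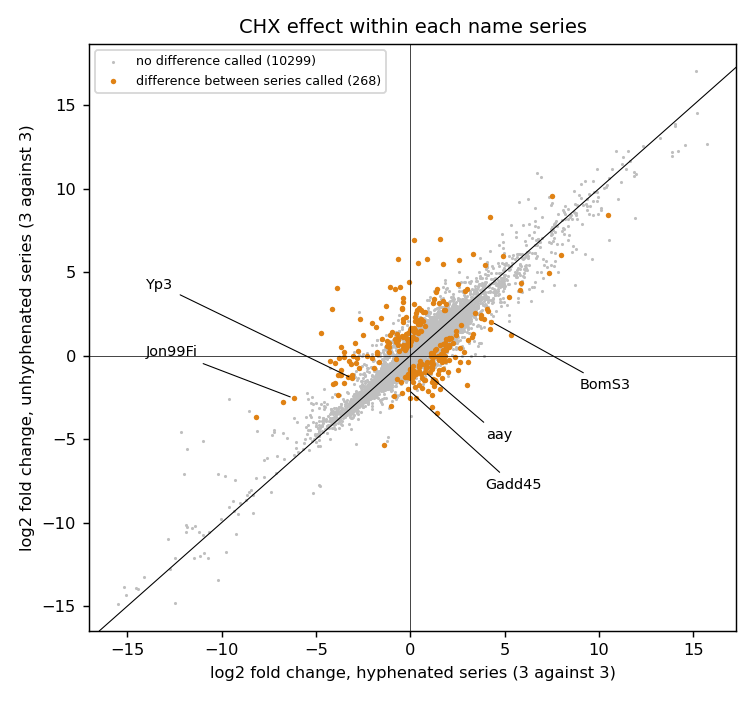
Log2 fold change of CHX over vehicle within the hyphenated series (horizontal axis, 3 against 3) and within the unhyphenated series (vertical axis, 3 against 3), 1 point per feature with a value in both. Most points lie near the diagonal, and orange points mark features whose effect differed between series, such as Jon99Fi at -6.18 and -2.54. Features with no value in 1 of the series are left out.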

How the data were processed

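RNA of the 12 day 2 libraries was measured by RNA-seq. The authors deposited 1 table of raw counts per feature, neither normalized nor pooled. Per the submitters' notes, HTSeq 0.12.3, STAR 2.7.10a and bcl2fastq 2.18.0.12 were used with build BDGP6. The sources used here do not give how rRNA was removed or whether strand was used. All columns of samples could be mapped by name, so 0 were left unused.

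Features that passed filterByExpr were fitted with edgeR 4.0.16 (R 4.3.3) by TMM scaling, a robust quasi-likelihood fit and terms for group and name series, with Benjamini-Hochberg adjustment over all 10664 features. glmTreat tested against a log2 fold change of 1, and a product term tested the name series. The standard error of a log2 fold change is its size over the square root of F. CPM were TMM-scaled. Lists are described by counts and medians, with no test. The fit was tested on simulated data with far fewer changed features than here. That simulation therefore does not check the scaling when most features differ. Alternatives were DESeq2 1.42.0, limma-voom (limma 3.58.1), other scalings and filters, all 18 libraries, each name series alone, a replicate block, no term for the name series, a 4-fold threshold and leaving out each library. Names and positions came from Ensembl release 115 (BDGP6.54). A planned description of promoter motifs was not run, because no sequence was used here.

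Named were the 10 largest rises and falls in mean CPM among features called over 2-fold, and for each list up to 3 called members with the largest fold change at 20 CPM or more and the 2 most abundant. Fixed translation genes, the actins and the 8 least changed genes of at least 100 CPM were added. One pair of paralogs is not reported here. The members and lists were chosen with earlier results of these data known. The genes eEF1beta, eEF1gamma, mEFG1, mEFTu1, eIF1A, eIF2Bdelta, ValRS-m, CysRS-m, TyrRS-m, HBS1, Clbn, Ltn1, RpS19b, Gcn2, Sesn, Hr38, Ilp3 and Ilp5 lie outside this rule and were chosen after their values were seen. Total counts of 21495631 to 38519240 per library set the precision.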

Additional observations from a re-analysis of the deposited data

Results flagged for a closer look

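The CHX effect differed between the hyphenated and the unhyphenated series, by the test of the difference itself in edgeR, for 9 of the genes named here. The adjusted p was 0.00055 for aay, 0.00123 for Jon99Fi, 0.00729 for CG12374 and 0.00742 for Gadd45. It was 0.00895 for BomS2, 0.0195 for BomS3, 0.0209 for betaTry, 0.0272 for fit and 0.0277 for Yp3. Jon99Fi, CG12374 and betaTry are proteases of the gut, and BomS2 and BomS3 short immune peptides.

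Of 364 groups of 6 libraries, 1 for each of 182 genes with CHX and with vehicle, 29 had 1 library far from the other 5. Chance does this in about 1 of 20 groups. CHX replicate 1 held 11 of these values. It was high in muscle transcripts, with 17720 CPM of Act88F (next 15180), 26020 of Mlc2 (next 23290) and 6789 of Act79B (next 5798). It was also high in Vajk2 with 1896 CPM, mEFTu1 with 351.3, betaTub97EF with 230.7 and Ilp3 with 6.275. It was low in Hsc70-3 with 583.3 CPM, Eaat1 with 262.5, ftz-f1 with 47.98 and Edc3 with 22.3. Among the other CHX libraries, replicate 5 was high in Vm26Aa with 17.84 CPM (next 1.018) and in fit with 2.596, and low in Jhedup with 22.38. Replicate 3 was low in Diap1 with 135.6 CPM and replicate 6 low in Act42A with 198.3.

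Of the vehicle libraries, replicate 1 was high in the proteases CG12374 with 5375 CPM (next 2759) and betaTry with 2621 (next 1198). The same library was high in RpL22 with 790.0 CPM, Col4a1 with 367.0 and betaTub97EF with 60.34. Vehicle replicate 5 was high in Pink1 with 171.8 CPM, crc with 150.4, Ltn1 with 105.7, Eip74EF with 22.55, Hr38 with 4.042 and RpS19b with 0.6737. Vehicle replicate 6 was high in BomS2 with 189.2 CPM (next 86.01) and BomS3 with 149.1 (next 70.63).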

How the results depend on the processing

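Counts of changed features stayed within 1.5 times the main count under the other tools, filters and name series, apart from those given here. With library sizes only, 1642 features were higher and 3394 lower by over 2-fold, and against a 4-fold threshold 957 and 574. Leaving out 1 library gave 4375 to 4495 features that were higher, 4255 to 4438 that were lower, and 2549 to 2780 and 1814 to 2022 by over 2-fold. For the difference between name series it gave 124 to 993, with 993 without CHX replicate 1, 128 without replicate 2, 130 without replicate 3, 180 without replicate 4, 124 without replicate 5 and 177 without replicate 6 of CHX, and DESeq2 gave 575. With a replicate block 4274 features were higher and 4233 lower, 2578 and 1847 by over 2-fold. Libraries of the same number did not deviate together (correlations from -0.29 to -0.04), and no library pair is stated to share a source.

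Library sizes only turned the median of mitochondrial ribosomal proteins to -0.33 and of proteasome subunits to -0.24, and upper quartile factors that of cytosolic ribosomal proteins to 0.0242. With library sizes only the log2 fold change became -0.58 for KdelR, -0.57 for CG11857 and Opa1, -0.56 for AGO1, -0.54 for TER94, -0.47 for ninaE, -0.45 for mRpS30, -0.32 for CysRS-m, -0.25 for alphaTub84B, -0.22 for S6k, -0.20 for TyrRS-m and -0.18 for crc. It was -0.14 for Vha55, -0.11 for Diap1, -0.07 for Cat, -0.06 for Shmt and -0.05 for Aldh-III. With upper quartile factors it became 0.20 for Pink1, 0.19 for TM9SF2 and 0.02 for eIF4A. These shifts follow from the zero point of each scaling. In the hyphenated series alone aay had 0.76, a gene whose effect differed between the series. Of genes near 1 CPM, depth limits the precision.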
